A study of Mus musculus with 19 samples.

Results

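The regions described here carry a 5-hydroxymethylcytosine (5hmC) peak in mouse embryonic stem cells and none in any pre-iPSC library. They were chosen by merging all deposited peaks of 18 libraries on chromosomes 1 to 19 wherever they shared at least 1 bp, which gave 358447 merged regions. A region was kept when at least 2 of the 3 mESC lists and none of the 15 pre-iPSC lists had a peak in it. This left 1446 regions, of which 241 lay on chromosome 8, and that chromosome is treated apart because it was over-represented in part of the mESC lists. The 1205 regions outside chromosome 8 covered 473 kb, and they are called the never-seen regions below. "Never seen" means that no peak was called: the lists do not show whether weaker 5hmC was present there.

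TET enzymes oxidise 5-methylcytosine in DNA, and 5hmC is their first product. It is an intermediate on a route to demethylated DNA, and in embryonic stem cells it is known to mark the bodies of active genes and many enhancers. Pre-iPSCs are cells that have stalled on the way from fibroblasts to induced pluripotency. Ascorbic acid is known to raise TET activity.

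KO pre-iPSCs comprised the lines KO1 and KO2, each with 1 library at days 0, 2 and 10 (D0, D2 and D10). For WT pre-iPSCs there were replicates A, B and C on each of these days. All of them derived from mouse embryonic fibroblasts, and the labels give ascorbic acid with 2i (the GSK3 inhibitor CHIR-99021 and the MEK inhibitor PD-0325901) to every KO, WT and mESC library, D0 included. The labels do not name the deleted gene or say whether KO1 and KO2 lack the same one. The mESC libraries came from V6.5, an established mouse embryonic stem cell line, with a single library at 0, at 12 and at 72 hours, so the mESC side has no replicates. The 19th sample, an input library from pre-iPSCs, has no peak list. The KO lists held 61125 to 138474 peaks, the WT lists 55134 to 161004 and the mESC lists 24130 to 33576. A library's read total is not in its list, so absolute depth is unknown. Whether replicates came from separate cultures is not in the labels, so a p-value speaks of the spread among these libraries, and that spread may be technical. WT D0 C stands apart, as the only list whose run name does not carry the word input. Positions are those of the mm9 build, and genes are not named because no mm9 annotation was used here.

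The never-seen regions were a minority of what the mESC lists shared. Outside chromosome 8, 11637 regions had a peak in at least 2 mESC lists, and 10.4% of them were never seen in pre-iPSCs (95% Wilson interval 9.81 to 10.9%). The other 10432, called shared regions, had a peak in at least 1 pre-iPSC list. The share never seen was lower where more mESC lists held the region: it was 26.2% of 52065 regions in 1 mESC list, 10.7% of 10591 in 2 lists and 7.07% of 1046 in all 3. Among regions of a single mESC list, it was 23% at 0 hours, 24.3% at 12 hours and 32.5% at 72 hours. The 13618 regions of 1 mESC list and no pre-iPSC list are called single-list regions and serve as a second comparison. These shares follow from the rule and are descriptions. Their intervals cover counting error only, and regions of a library are not independent replicates.

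The never-seen regions were found mostly in adjacent time points of the mESC course. Of the 1205, 640 (53.1%) had a peak at 0 and 12 hours, 391 (32.4%) at 12 and 72 hours, 100 (8.30%) at 0 and 72 hours, and 74 (6.14%) at all 3 times. Shared regions divided into 50.2%, 35.8%, 4.75% and 9.32% over the same combinations. Never-seen regions thus held a smaller part with a peak at all 3 times, and a larger part with peaks at 0 and 72 hours only. Read the other way, 16.8% of the 595 regions with peaks at 0 and 72 hours only were never seen, against 7.07% of those with peaks at all 3 times.

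Never-seen regions were narrower than shared regions, with nearly the same fold and a lower -log10 q. The median width was 364 bp (quartiles 299 and 457 bp, longest 1158 bp). Width under mESC peaks is the span from the first to the last mESC peak of a region, gaps included. In shared regions its median was 420 bp (quartiles 330 and 593 bp). Pre-iPSC peaks can join separate mESC peaks into a shared region, but never into a never-seen one. How far this adds to the difference in width was not tested. The fold enrichment over background that the authors' peak caller gave at the summit had a median of 4.42 at 0 hours, 4.12 at 12 hours and 4.36 at 72 hours in never-seen regions. In shared regions the medians were 4.46, 4.14 and 4.46. The median -log10 q was 6.25, 4.57 and 5.05 at 0, 12 and 72 hours in never-seen regions, against 6.55, 4.97 and 5.64 in shared regions, lower in each list. Folds and -log10 q are the authors' own values per peak. Summits of different mESC lists lay a median of 67 bp apart within a never-seen region and 87 bp apart within a shared one. These distances are bounded by the width of the merged region, so they do not show how well the lists agree on a point.

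Width, strength and surroundings each went with the chance of being seen. When the 11637 regions were split into 4 groups of about equal size by their width under mESC peaks, 14.8% of the narrowest group (up to 326 bp) and 3.49% of the widest (over 576 bp) were never seen. By the lowest -log10 q among the mESC lists of a region, the share was 12.5% in the weakest group and 8.18% in the strongest. By the fold it showed no such course, with 11%, 9.81%, 10.4% and 10.2% from the lowest group to the highest. The widest range went with how many pre-iPSC regions lay in the same 1 Mb of chromosome. Never-seen regions made up 19.8% of the group with 2 to 161 pre-iPSC regions per Mb, 10.9% and 6.82% of the middle groups, and 3.75% of the group with 321 to 544. Width and local density enter the rule directly, so these values are descriptions.

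**Figure D1:**
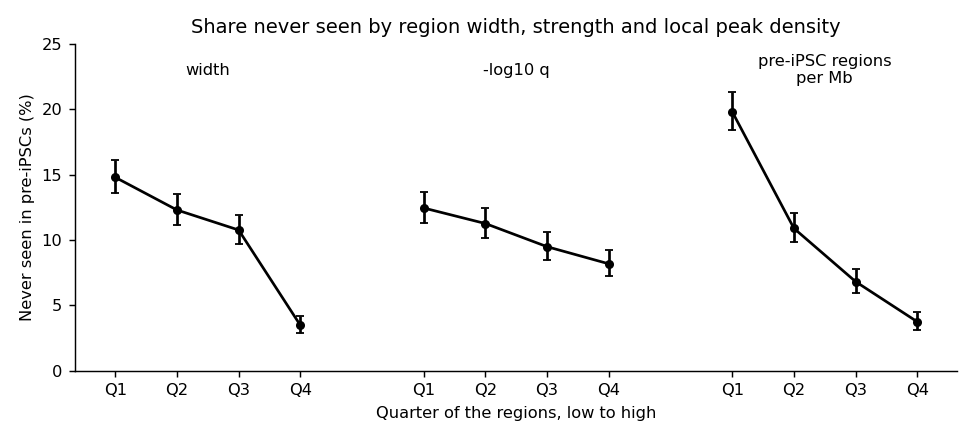
Percentage of mESC regions (at least 2 mESC lists, outside chromosome 8) never seen in pre-iPSCs, in 4 groups of about equal size from low to high for width under mESC peaks, lowest -log10 q and number of pre-iPSC regions in the same 1 Mb. Points are shares and bars 95% Wilson intervals. The share is lower in the highest than in the lowest group of each panel, and furthest for local density, where it is 19.8% in the sparsest and 3.75% in the densest group.

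The regions were spread over all 19 chromosomes. On 475 stretches of 5 Mb outside chromosome 8 that held a region of at least 2 mESC lists, 406 held a never-seen region, with a median of 2 per stretch. Few lay side by side: 57 of the 1205 fell in 27 runs with gaps of at most 10 kb, and 1148 stood alone. Outside chromosome 8, chromosome 5 held the most, with 156, or 16.1% of its 967 regions (95% Wilson interval 13.9 to 18.6%). Outside chromosomes 5 and 8 the share was 9.83% (9.28 to 10.4%). Chromosome 17 had the lowest share, with 36 of 571 regions (6.30%). Chromosome 5 was singled out after these values were seen.

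Chromosome 5 was also unequal among the pre-iPSC lists. It held 10.3 to 10.5% of the peaks of the 3 KO1 lists, against 4.29 to 6.81% of those of the other 12 pre-iPSC lists, and 7.34%, 6.93% and 7.09% of the mESC peaks at 0, 12 and 72 hours. With the KO1 lists set aside, the share never seen was 18.5% on chromosome 5 and 10.2% outside chromosomes 5 and 8. Leaving out lists can only add never-seen regions, so these values do not bear on the part of KO1 in the contrast, which was not tested. By group of local density the contrast was as follows. In the sparsest group, 36.4% of 173 chromosome 5 regions were never seen, against 18.8% of regions on other chromosomes. In the middle groups the values were 22.1% against 9.94% and 10.2% against 6.46%, and in the densest they were 4.68% and 3.65%.

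**Figure D2:**
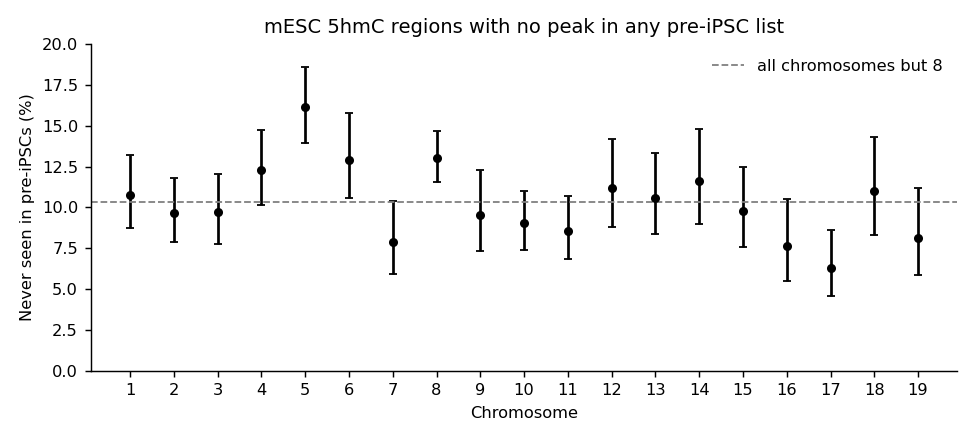
Percentage of regions with at least 2 mESC lists that were never seen in pre-iPSCs, by chromosome. Points are shares, bars 95% Wilson intervals, and the dashed line the share over all chromosomes but 8 (10.4%); chromosome 5 is highest at 16.1% and chromosome 17 lowest at 6.30%.

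A stretch of distal chromosome 4 held the most never-seen regions of any 5 Mb. Between 145000001 and 150000000 there were 25 among 87 regions of at least 2 mESC lists (28.7%, 95% Wilson interval 20.3 to 39.0%). Elsewhere on chromosome 4 the share was 10.2% of 695 regions. The 3 mESC lists had 147, 175 and 141 peaks in this stretch at 0, 12 and 72 hours, and the pre-iPSC lists had 196 to 801, so the stretch was not empty in pre-iPSCs. On chromosome 5 the stretch from 120000001 to 125000000 held 14 of 65 (21.5%, 13.3 to 33.0%). Both stretches were named after their counts were seen.

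The longest never-seen region, of 1158 bp, lay on chromosome 12 from 70034808 to 70035965. It had a peak at all 3 mESC times, with folds of 3.93, 3.79 and 4.26 at 0, 12 and 72 hours, and the nearest pre-iPSC peak (WT D10 B) was 11803 bp away. The next in length was on chromosome 4 from 146431990 to 146433101, inside the stretch described above. Its folds were 4.78, 6.25 and 8.99 at 0, 12 and 72 hours, and the nearest pre-iPSC peak (KO1 D2) was 45150 bp away. On chromosome 14 a region of 1007 bp (55309992 to 55310998) had folds of 4.48 at 12 hours and 5.33 at 72 hours. It had 11 pre-iPSC peaks of 10 lists within 5 kb, the nearest 1757 bp away, so it stood in a neighbourhood that pre-iPSCs did mark.

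Of the remaining long regions, 3 had no pre-iPSC peak within 5 kb. These were on chromosome 19 from 3159100 to 3160048, with peaks at all 3 times, on chromosome 19 from 11952133 to 11953063, and on chromosome 12 from 110697750 to 110698650. Those on chromosome 13 (41327284 to 41328217) and chromosome 10 (111292420 to 111293329) had pre-iPSC peaks within 5 kb in 1 and 9 lists. The chromosome 10 region came closest, with a WT D2 B peak 434 bp away.

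The never-seen region best supported by both its lists was on chromosome 4, from 53693564 to 53693993. Its summits at 0 and 12 hours were 4 bp apart, with folds of 7.34 and 7.47 and -log10 q of 15.8 and 15.4. A single WT D10 A peak lay within 5 kb, 4296 bp away. Ranked by the lower of the -log10 q values, 3 more of the 8 best were on chromosome 4 in the distal stretch: 146997327 to 146997689, 145053248 to 145053581, and 145291932 to 145292412. The last of these had a WT D10 A peak 147 bp away. A region on chromosome 11 (3071505 to 3071825) had a high -log10 q at 12 and 72 hours (13.4 and 22.4) with a low fold (2.20 and 2.70).

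The other 3 of these 8 showed how differently such regions can be placed. The region on chromosome 2 (163799005 to 163799496, folds of 6.63 at 12 and 6.60 at 72 hours) had its nearest pre-iPSC peak 11521 bp away, in WT D10 C. That on chromosome 11 (96039732 to 96040234) had 1 KO1 D10 peak within 5 kb. The region on chromosome 10 (58930225 to 58930629, folds of 6.36 at 0 and 6.16 at 12 hours) had 32 peaks from all 15 pre-iPSC lists within 5 kb, the nearest 362 bp away. No pre-iPSC peak reached into it.

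Among regions with a peak at all 3 mESC times, the highest lowest-of-lists -log10 q (8.36) belonged to chromosome 13, 12990278 to 12990582. Its folds were 5.24, 5.59 and 5.86 at 0, 12 and 72 hours, its summits lay within 23 bp, and a WT D0 C peak 8010 bp away was the nearest. Regions on chromosome 2 (28448793 to 28449290), chromosome 11 (96088979 to 96089547) and chromosome 5 (37777963 to 37778529) followed. Of these, the chromosome 2 region had pre-iPSC peaks within 5 kb, in 10 lists. The chromosome 11 region lay less than 50 kb from the one at 96039732 named above.

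The densest run of never-seen regions held 4 within 11728 bp on chromosome 5 (120246397 to 120258124). All 4 had peaks at 0 and 12 hours, and their folds were 3.91 to 5.10 at 0 hours and 3.34 to 4.57 at 12 hours. The next run held 3 within 3180 bp on chromosome 7 (50445390 to 50448569). All 3 had peaks at 12 and 72 hours, and the middle one also at 0 hours. Their folds were 4.85 to 5.29 at 12 hours and 4.88 to 5.70 at 72 hours, and the nearest pre-iPSC peak was 22506 bp or more away. Pairs followed on chromosome 1 (30099409 to 30100239), chromosome 10 (114889736 to 114896932) and chromosome 11 (43588936 to 43595366). The pair on chromosome 1 lay 56919 bp from the nearest pre-iPSC peak.

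The regions just outside the rule were mostly marked by WT cells at D10. Outside chromosome 8, 897 regions of at least 2 mESC lists had a peak in exactly 1 pre-iPSC list. That list was WT D10 A for 335 of them, WT D10 B for 208 and WT D10 C for 106. No other list accounted for more than 77 (WT D2 A). KO1 D10 accounted for 7 and KO2 D10 for 43. Regions of a single pre-iPSC list were not counted over all merged regions, so these counts do not mark a trait of mESC regions. The WT D10 lists held 86465, 77530 and 55134 peaks (A, B and C), and WT D2 A, the longest list, held 161004. Median -log10 q was 6.72, 5.32 and 5.76 in WT D10 A, B and C, and 7.06 to 10.7 in the other pre-iPSC lists. The part of list length or peak strength in these counts was not tested. Of all regions of at least 2 mESC lists, WT D10 A, B and C had a peak in 7507, 7053 and 5572. The other pre-iPSC lists had one in 2507 (KO1 D0) to 6748 (WT D2 A). The 897 regions had a median lowest -log10 q of 4.23, the same as the never-seen regions, and a median width under mESC peaks of 376 bp against 364 bp.

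Taken by group, 2224 of the 10432 shared regions had pre-iPSC peaks in WT D10 libraries alone, and 882 of these in all 3. For KO the totals were 17 at D0, 66 at D2 and 50 at D10, each from 2 libraries. For WT they were 26 at D0 and 168 at D2, each from 3. Without the 3 WT D10 lists, an alternative added after the data were seen, 3459 regions would count as never seen in place of 1205. With the 9 WT lists alone the count was 1416, and with the 6 KO lists alone it was 4222. Fewer lists can only leave more regions never seen, and KO had fewer lists than WT. The WT D0 or WT D2 lists were not set aside as a group for comparison.

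**Figure D3:**
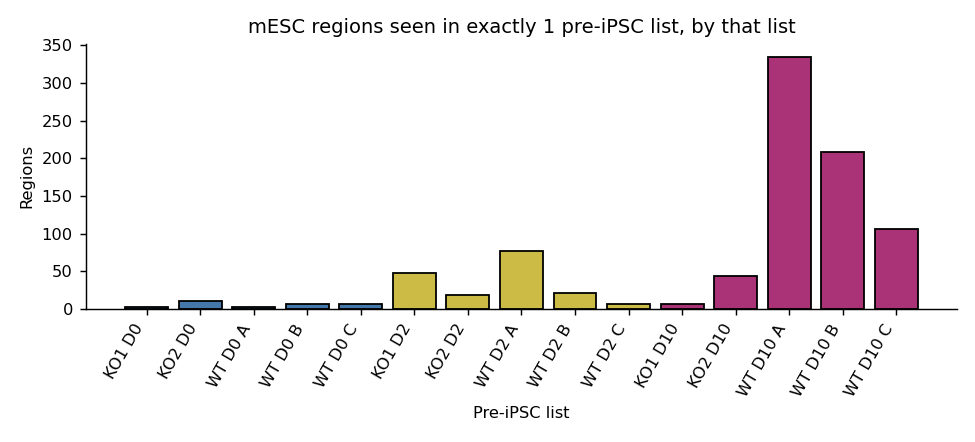
Number of mESC regions (at least 2 mESC lists, outside chromosome 8) with a peak in exactly 1 pre-iPSC list, by that list; bars are counts, coloured by day, with KO left of WT on each day. The 3 WT D10 lists stand at 335, 208 and 106, above all others.

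The strongest of the regions just outside were on chromosome 4 (145288995 to 145289361), chromosome 11 (67066595 to 67067080) and chromosome 11 (34495167 to 34495837). The first lies under 3 kb from a never-seen region (145291932) and had folds of 8.76 at 12 hours and 10.9 at 72 hours, with a peak in WT D10 B. The second had a peak in WT D10 A. The third had peaks at all 3 mESC times, with folds of 6.11, 7.57 and 8.03 at 0, 12 and 72 hours, and its only pre-iPSC peak was in WT D0 C.

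Peaks beside the never-seen regions do not overlap them, but the rule favoured stretches with few pre-iPSC peaks, as the local density above showed. Shares beside them, and their gap from shared regions, are thus not independent of the rule. Libraries were compared on these shares. Of the 1205 regions, 724 (60.1%) had a deposited pre-iPSC peak of some list within 5 kb of their edges and 368 (30.5%) within 1 kb. For shared regions, peaks that did not overlap the region lay within 5 kb of 89.7%, and for single-list regions of 68.2%. The median distance from a never-seen region to the nearest pre-iPSC peak was 2972 bp (quartiles 720 and 10467 bp). For 47 regions it was under 100 bp, and for 92 it was over 50 kb. The most remote lay on chromosome 15 (24598512 to 24599041), 341070 bp from any pre-iPSC peak, and others on chromosome 10 (31901930 to 31902295) and chromosome 5 (51943880 to 51944415) were 337833 and 312228 bp away.

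To compare libraries, every pre-iPSC list was cut to the length of the shortest, 54997 peaks, keeping those with the highest deposited -log10 p. The shortest was WT D10 C, which therefore stayed whole. Before the cut, the median -log10 q was 6.72, 5.32 and 5.76 in WT D10 A, B and C, and 7.06 to 10.7 in the other pre-iPSC lists. A strong peak below is one kept by this cut, so WT D10 lists may keep weaker peaks than others. The part of this in the WT D10 shares was not tested. KO libraries then had a peak within 5 kb of 13.2% (KO1) and 13.4% (KO2) of the never-seen regions at D0, of 13.6% (KO1) and 12.8% (KO2) at D2, and of 13.9% (KO1) and 13.7% (KO2) at D10. WT libraries had one beside 14.9%, 14.3% and 18.7% at D0 (A, B and C), 14.6%, 14.8% and 13.03% at D2, and 22.2%, 20.2% and 24.1% at D10. All 3 WT D10 libraries thus lay above each of the other 12 libraries, and KO libraries stayed within 12.8 to 13.9% on all days.

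The WT means were 15.9 ± 2.39% (D0), 14.1 ± 0.962% (D2) and 22.2 ± 1.99% (D10; SD, n = 3 each). A two-sided exact permutation of F over the WT days gave p = 0.0143. This test was 1 of 21 made on flank shares, and its Benjamini-Hochberg adjusted p was 0.188, so it did not pass the correction. D10 exceeded D2 by 8.02 points and D0 by 6.22 points, each with the smallest exact p that 3 libraries against 3 allow (p = 0.1, adjusted p = 0.3), and higher in 9 of 9 pairs of libraries. D2 and D0 differed by -1.80 points (exact p = 0.4). With all deposited peaks in place of the strongest, WT means were 21.8 ± 1.98% (D0), 27.7 ± 4.90% (D2) and 27.3 ± 3.82% (D10; SD, n = 3 each), and the test was not passed (exact permutation p = 0.207). Run names differ in style between WT replicates A, B and C, and whether that marks a batch is not stated. Within A, B and C, D10 exceeded D0 by 7.30, 5.89 and 5.48 points.

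**Figure D4:**
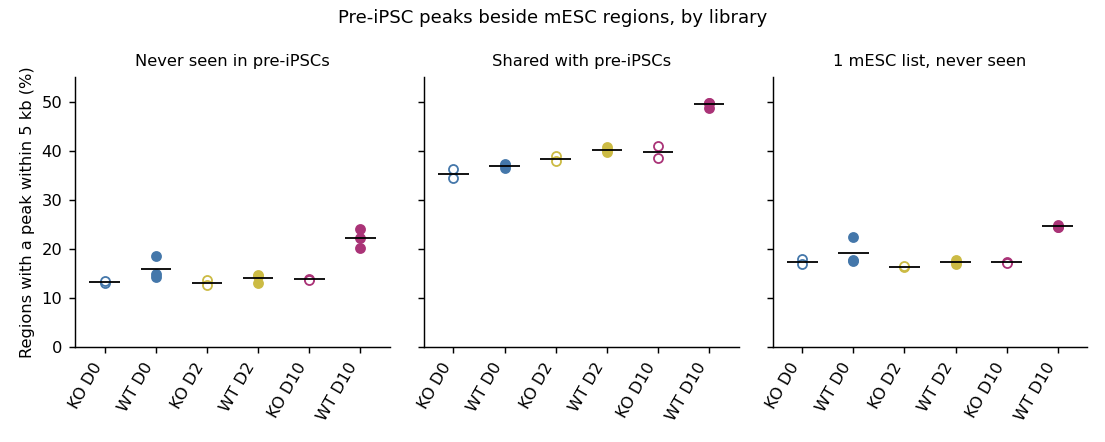
Percentage of regions with a pre-iPSC peak within 5 kb, by library, for never-seen regions, shared regions and single-list regions outside chromosome 8, with each pre-iPSC list restricted to its 54997 strongest peaks. Each point is 1 library (open KO, filled WT), and lines are group means; WT D10 libraries are the highest in all 3 panels, at 20.2 to 24.1% for never-seen regions.

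WT D10 libraries were also the highest beside the other sets. For single-list regions, WT means were 19.2 ± 2.74% (D0), 17.4 ± 0.349% (D2) and 24.6 ± 0.288% (D10; SD, n = 3 each). Never-seen minus single-list regions came to -3.28, -3.26 and -2.47 points on the 3 days, and no difference between days was detected in it (exact permutation of F, p = 0.675, adjusted p = 0.788). Beside shared regions the WT shares were higher, at 49.4 ± 0.645% at D10 and 37.0 ± 0.428% at D0 (SD, n = 3 each). Never-seen minus shared regions came to -21.1 points at D0, -26.1 at D2 and -27.3 at D10 (exact permutation of F, p = 0.0179, adjusted p = 0.188). With all deposited peaks this difference did not pass the test before adjustment either (exact permutation p = 0.111). Its change between D10 and D0 was -6.22 points with a flank of 5 kb and had the opposite sign with 50 kb (3.09 points). Shared regions are defined by a pre-iPSC peak: 2224 had one in WT D10 libraries alone, against 26 for WT D0 and 168 for WT D2. A gap that is widest at D10 can thus follow from the rule, and no conclusion is drawn from this test.

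KO and WT libraries were compared at each day on the same measure. At D10 the KO mean was 13.8 ± 0.176% (SD, n = 2) and the WT mean 22.2 ± 1.99% (SD, n = 3), a difference of -8.34 points. Both KO libraries lay below all 3 WT libraries, which gives the smallest exact permutation p that 2 against 3 allow (p = 0.1, adjusted p = 0.3). Of libraries with a run name of the same style, KO1 lay 6.22 points below WT B and KO2 lay 10.5 points below WT C. At D0 the KO minus WT difference was -2.61 points and at D2 it was -0.941 points (exact permutation p = 0.3 for both), and without WT D0 C the D0 difference was -1.24 points. With all deposited peaks in place of the strongest, the differences were -4.79 points at D0 (exact permutation p = 0.1), -2.77 at D2 (p = 0.4) and -3.04 at D10 (p = 0.5). The difference at D0 was then larger than that at D10. Beside single-list regions the D10 means were 17.3 ± 0.0987% in KO (SD, n = 2) and 24.6 ± 0.288% in WT (SD, n = 3). Never-seen minus single-list regions was -3.48 points in KO and -2.47 points in WT at D10 (KO minus WT -1.01 points, exact permutation p = 0.6), so a KO effect particular to never-seen regions was not detected.

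Closer to the regions, the WT D10 share was a larger multiple of those of the other days. At D10, KO libraries averaged 3.49% of never-seen regions with a strong peak within 1 kb, 23.9% within 10 kb and 59.2% within 50 kb. In WT, a strong peak lay within 1 kb of 3.82% of the regions on average at D0, 3.76% at D2 and 6.86% at D10. The values within 10 kb were 26.8%, 23.5% and 33.4%, and those within 50 kb were 63.1%, 56.3% and 66.5%. From 10 kb outwards WT D0 C reached the range of the D10 libraries, with 32.1% within 10 kb, where the lowest of them had 31.5%. This course was not particular to never-seen regions. Within 1 kb, WT means at D0, D2 and D10 were 10.0%, 13.2% and 18.9% for shared regions and 4.45%, 4.11% and 7.26% for single-list regions. Within 50 kb they were 89.7%, 86.7% and 90.0% for shared regions and 71.5%, 64.3% and 73.0% for single-list regions. By the deposited lists, flanking peaks came from WT D10 libraries alone in 122 of the 1205 regions. For KO, with 2 libraries per day, the same count was 9, 7 and 9 at D0, D2 and D10, and for WT, with 3, it was 23 at D0 and 19 at D2. Counts of whole groups were less one-sided. Both KO D10 and no WT D10 lists flanked 40 regions, and all 3 WT D10 and no KO D10 lists flanked 53. All 3 WT D10 and no WT D0 lists flanked 83, and all 3 WT D0 and no WT D10 lists flanked 54. Such counts were not made for shared or single-list regions, so they do not mark a trait of never-seen regions.

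**Figure D5:**
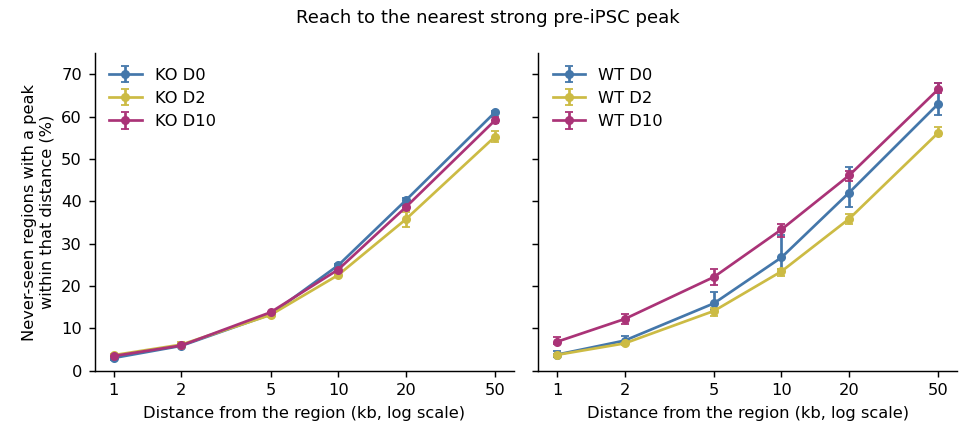
Mean percentage of never-seen regions with a strong pre-iPSC peak within 1 to 50 kb of their edges (log scale), for KO (left) and WT (right) at D0, D2 and D10; bars span the lowest and highest library. The WT D10 mean lies above those of WT D2 and D0 at each distance, for example 6.86% within 1 kb. KO means lie close together up to 5 kb and further apart beyond, at 61.1% (D0), 55.3% (D2) and 59.2% (D10) within 50 kb.

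WT D10 means exceeded D0 means for each combination of mESC times, at different levels. Regions with peaks at 0 and 12 hours had a strong WT peak within 5 kb in 26.0 ± 1.00% of cases at D10 and 19.7 ± 2.12% at D0. For 12 and 72 hours the values were 20.8 ± 3.74% and 14.2 ± 3.41%. For all 3 times they were 14.0 ± 3.12% and 8.56 ± 3.12%, and for 0 and 72 hours 9 ± 1.73% and 4 ± 1% (SD, n = 3 each). Libraries of D10 and D0 did not overlap for 0 and 12 hours and for 0 and 72 hours, and met or overlapped for the others. The 100 regions found at 0 and 72 hours only had the lowest means in this comparison on both days. These values were not tested.

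The surroundings of the never-seen regions were then read from a test across the whole genome. It compared, in 10 kb windows, the bp covered by the 55130 strongest peaks of each list (chromosomes 1 to 19 and X), by limma with Benjamini-Hochberg adjustment at 0.05 over all windows. WT D10 C, with 55134 peaks, again stayed almost whole. Changes are on the scale log2(covered bp + 200), which understates changes of sparsely covered windows. Only 56 of 1251 windows holding a never-seen region had the mean of 500 covered bp needed for the test among the WT libraries, so most such windows held too little pre-iPSC signal to test. The 56 passed because they were well covered on some day, and they do not speak for the rest.

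Between WT D10 and D0, 17 of the 56 windows rose (30.4%) and 12 fell (21.4%; limma adjusted p under 0.05). Over all windows 49.8% were called, 22.7% higher and 27.1% lower, and of the 56 windows 51.8% were called. Between WT D10 and D2, 16 rose and 16 fell (28.6% each), where 47% of all windows were called (13.8% higher and 33.2% lower). Between WT D2 and D0, 8 rose (14.3%) and 1 fell (1.79%), where 17.8% of all windows were called (14.8% higher and 2.98% lower). Since windows had to be well covered to be tested, these counts are descriptions. The 3 contrasts share libraries. With all deposited peaks and no scaling, 18 of 107 windows were higher and 33 lower at D10 than at D0, so the balance of directions turned. Over all windows 11.4% were then higher and 32.9% lower. The balance of the members' windows turned too when a WT D10 library was left out, with 12 higher and 16 lower without A, 12 and 16 without B, and 15 and 16 without C. Over all windows, 16.6% were then higher and 28.7% lower without A, 15.2% and 27.1% without B, and 16.0% and 26.9% without C. In a fit of all 15 libraries, 10 were higher and 16 lower, where 14.5% of all windows were higher and 27.3% lower. With every covered window tested, 85 of 571 were higher and 52 lower at D10 than at D0, where 10.8% of all windows were higher and 13.1% lower. In each of these settings the members' share called higher was above that of all windows. Their share called lower was above it in some settings and below it in others. Those gaps were not tested, and the balance of rises and falls was not stable for this contrast. The other contrasts moved as well. With every covered window, 77 were higher and 35 lower between D10 and D2, where 8.85% of all windows were higher and 8.88% lower. Between D2 and D0, 18 were higher and 22 lower, where 3.94% of all windows were higher and 6.08% lower.

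The largest rise to D10 was on chromosome 5, from 144000001 to 144010000. In WT, 2096, 2404 and 3218 bp of it were covered at D10 (A, B and C) and none at D2 or D0, where no list had any deposited peak in the window. This window passed the filter through D10 alone and so had to differ. The D10 minus D0 change was 3.77 on the log2 scale (SE 0.26, limma adjusted p = 8.54e-06). The never-seen region of this window (144008749 to 144009120, folds of 6.53 at 0 and 5.42 at 12 hours) lay 1136 bp from the nearest WT D10 peak and 50480 bp from the nearest WT D0 peak.

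Windows on chromosome 5 (116380001), chromosome 10 (117200001), chromosome 5 (66410001) and chromosome 5 (102310001) followed, with D10 means of 2515 ± 288, 2201 ± 232, 1937 ± 554 and 1776 ± 153 covered bp and none at D0 (SD, n = 3 each). In 2 of these, the windows at 116380001 and 102310001, the whole lists of D0 libraries held a weaker peak. The never-seen region in the window at 116380001 lay 127 bp from a WT D10 peak. The same 5 windows showed the largest rises from D2 to D10. Over D0 and D2 their mean coverage was 0 to 45.9 bp, so all 5 were tested only because of D10. The 5 never-seen regions in these windows lay 127 to 1583 bp from a WT D10 peak, without a peak of their own.

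The largest fall from D0 to D10 was on chromosome 10 (58930001), in the window of the region that all 15 lists flank. Strong peaks covered none of it at D10, against 1641, 1473 and 870 bp in D0 libraries A, B and C (log2 change -2.90, SE 0.33, limma adjusted p = 0.000105). WT D10 A had a weaker peak of 236 bp there. The window on chromosome 2 at 166000001 also fell, with none at D10 against 1198 ± 38.8 bp at D0 (SD, n = 3, log2 change -2.80, limma adjusted p = 3.98e-05). Next came chromosome 19 (57310001), chromosome 5 (30590001) and chromosome 10 (107720001), whose log2 changes were -2.43, -2.31 and -2.28. Of these 5 windows, that at 166000001 alone reached a mean of 500 bp without D0.

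From D2 to D10 the largest fall was on chromosome 11 (6660001), with none covered at D10 against 3177, 2651 and 1405 bp in D2 libraries A, B and C (log2 change -3.64, SE 0.35, limma adjusted p = 5.31e-05). The falls on chromosome 2 (166000001 and 30990001), chromosome 10 (94680001) and chromosome 11 (96060001) ranged from -3.06 to -2.74. Without D2, that at 166000001 alone reached 500 bp. From D0 to D2 the largest rise was on chromosome 3 (121750001), with 1144, 749.9 and 1081 bp in D2 libraries A, B and C and none at D0 (log2 change of 2.56 with SE 0.41, limma adjusted p = 0.00381). Whole lists of D0 A and B had weaker peaks there. Rises on chromosome 14 (64560001), chromosome 6 (4920001), chromosome 10 (94680001) and chromosome 7 (53950001) lay between 1.86 and 2.46, and the single fall was on chromosome 5 (145550001; log2 change -1.54). The windows on chromosomes 3, 14 and 10 passed the filter only through D2.

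In a fit of all 15 libraries, 50 windows holding a never-seen region were tested between KO and WT. Covered bp are scaled to another mean total in this fit, so WT values differ slightly from those above. At D10, 11 were higher in KO and 3 lower (limma adjusted p under 0.05). Over all windows 25.9% were called, 20.8% higher and 5.06% lower in KO, so the shares among the members' windows (22% and 6%) were near those of all windows. This balance depends on the filter: with every covered window tested, 15 of 623 were higher in KO and 57 lower, where 3.66% of all windows were higher and 6.02% lower. At D0 limma called none of the 50, and 4 had an unadjusted p under 0.05, as did 1148 of all windows. Over all windows 0.0508% were called at D0 (0.0381% higher and 0.0127% lower in KO). At D2 limma also called none, with 3 at an unadjusted p under 0.05 and 1061 of all windows, where 0.0254% of all were called, each lower in KO.

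The largest KO deficit at D10 was in the chromosome 5 window at 144000001 that rose in WT. KO1 and KO2 covered none of it, against 2194, 2516 and 3368 bp in WT A, B and C (log2 change -3.83, SE 0.40, limma adjusted p = 2.89e-05), and no KO D10 list had a deposited peak there. Outside WT D10 its mean over the other 12 libraries was 0, so it entered the test only through the group in which it is high and had to differ. The window at 116380001 on chromosome 5 held 0 and 377 bp in KO1 and KO2, against 2288, 2763 and 2847 bp in WT (log2 change -3.05, limma adjusted p = 0.00131), and it too passed the filter only through WT D10. The third was on chromosome 4 at 148740001, in the stretch rich in never-seen regions, with 814 ± 325 bp in KO (SD, n = 2) and 3184 ± 158 bp in WT (SD, n = 3). In the opposite direction, the chromosome 2 window at 166000001 held 1499 and 1313 bp in KO1 and KO2 and none in WT at D10 (log2 change 3.003, limma adjusted p = 8.36e-05). Weaker deposited peaks of WT A and B covered 683 and 229 bp of it. Windows on chromosome 4 (3790001), chromosome 5 (120130001), chromosome 2 (30990001) and chromosome 19 (57310001) followed with log2 changes of 2.63, 2.54, 2.48 and 2.33. Of the 5, that at 3790001 passed the filter only through KO D10.

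Chromosome 8 held 241 never-seen regions, 13.03% of its 1849 regions of at least 2 mESC lists (95% Wilson interval 11.6 to 14.6%). It carried 6.99% of the mESC peaks at 0 hours, 13.2% at 12 hours and 12.0% at 72 hours, against 5.40 to 6.34% in the pre-iPSC lists. The regions followed these lists: 134 (55.6%) had peaks at 12 and 72 hours and 83 (34.4%) at 0 and 12 hours, where outside chromosome 8 the shares were 32.4% and 53.1%. The part of this excess of chromosome 8 peaks in the result was not tested. In width (median 362 bp), lowest -log10 q (median 4.42) and distance to the nearest pre-iPSC peak (median 2493 bp), they lay near the regions of other chromosomes (364 bp, 4.23 and 2972 bp).

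The longest on chromosome 8 were at 124276753 to 124277672, 47026932 to 47027827, 112814129 to 112814954 and 113815772 to 113816585. The region at 112814129 had peaks at all 3 times, with folds of 5.57, 4.55 and 5.15 at 0, 12 and 72 hours, and no pre-iPSC peak within 46304 bp. The best supported was at 24013485 to 24013754, with folds of 7.35 at 0 and 7.19 at 12 hours. It had 18 pre-iPSC peaks of 13 lists within 5 kb. The next were at 19690792, 32383361 and 19887252, and the last of these lay 19 bp from a WT D10 A peak. Between 65000001 and 70000000, 17 of 41 regions were never seen (41.5%, 95% Wilson interval 27.8 to 56.6%), a share named after it was seen.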

How the data were processed

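5hmC was enriched from sonicated genomic DNA by attaching an azide-bearing glucose with a glucosyltransferase, coupling biotin and capturing on streptavidin beads, per the labels' protocols. Bowtie, SAMtools, MACS2 and the mm9 build are named in the submitters' processing notes, with no versions given. Each of the 18 libraries has its own deposited list of peaks, so peaks were called per library. A label says that peaks were not called for the mESC samples, yet each has a list of the same layout, which was used as deposited. The deposited fold is a linear ratio at the summit over the background, and the deposited -log10 values are of p and q. They served only to describe, rank or filter peaks within a list.

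Peaks on chromosomes 1 to 19 were merged at 1 bp of overlap (Python 3.11.15, pandas 2.3.3); the 6675 peaks on other chromosomes stayed out of the regions. A flank is the 5 kb either side of a region. Flank shares used each pre-iPSC list's 54997 strongest peaks and two-sided exact permutation over libraries. Windows of 10 kb were tested with limma 3.58.1 (R 4.3.3; trend and robust) on log2(covered bp + 200), each library scaled to the mean total, with a mean of at least 500 bp required. WT contrasts used the 9 WT libraries and KO contrasts all 15. The limma fit was checked on simulated data for WT D10 against D0, and the permutation test on small made-up examples with known answers. Samples were grouped by their titles. Alternatives covered overlap, thresholds, flank, pseudocount, filter, chromosomes and left-out libraries.

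Named regions outside chromosome 8 are the 8 longest, the 8 with the highest lowest-of-lists -log10 q, the 5 highest of those in all 3 mESC lists and the 5 densest runs; on chromosome 8, the 4 longest and the 4 highest; just outside the rule, the 3 highest; and up to 5 windows per direction that passed the threshold with groups that did not overlap (ties by position). Members, lists and tests were chosen with earlier results of these data known. Gene names and sequences were not used, since the tables at hand are of another build.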

Additional observations from a re-analysis of the deposited data

How the results depend on the processing

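The number of never-seen regions outside chromosome 8 (1205) stayed within 1.5 times in 21 of 29 alternatives, and ran from 1207 to 1562 when 1 pre-iPSC library was left out. Those 15 runs are among the 21, and leaving out pre-iPSC lists can only add regions, so their direction was fixed in advance. It was 382 with mESC peaks of -log10 q of at least 5, 2149 with the strongest pre-iPSC peaks, 74 with all 3 mESC lists required, and 4222 with KO lists alone. It was 3459 without the WT D10 lists. Without the mESC list of 0, 12 or 72 hours it was 466, 173 and 715. The test of flank shares over the 3 WT days (F, before adjustment; D10 minus D0 6.22 points) had an exact permutation p under 0.05 in 12 of 16 alternatives. It did not with all deposited peaks (5.48 points), nor without WT D10 A or without WT D10 C (exact permutation p = 0.05 each); its adjusted p was over 0.05 to begin with. Leaving out 1 library gave D10 minus D0 differences of 5.23 to 7.59 points. The D10 minus D0 change of never-seen minus shared regions (-6.22 points), which can follow from the rule, ranged from -7.59 to -4.87 points without 1 library. The unadjusted p of F over the days reached 0.05 or more without WT D0 C, WT D10 A or WT D10 B. The change was -1.88 points with all deposited peaks and turned to 3.09 points with a flank of 50 kb. The difference from single-list regions (0.805 points) ranged from -0.0295 to 1.69 points without 1 library, reversed without WT D10 C. The KO minus WT differences kept their sign in all 11 alternatives each, in a design that cannot pass the threshold; without 1 library they ranged from -3.44 to -1.24 points (D0), -1.49 to -0.526 points (D2) and -9.34 to -7.34 points (D10).

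The letters of WT replicates did not clearly pair libraries. Deviations from the day means correlated by -0.0393 to 0.0481 over windows between same-lettered libraries, and 5 of 9 libraries correlated best with their own letter. Such values do not show that pairing is absent. With the letters as a replicate block, F over the 3 days had an exact permutation p of 0.0833, before adjustment, for the flank share (D10 minus D0 6.22 points). It was the same for never-seen minus shared regions (-6.22 points).

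Of the windows with a never-seen region, D2 against D0 gave 9 calls, 5 and 14 with a pseudocount of 50 and 1000 bp, and 2 to 13 without 1 library (3, 2 and 3 without WT D2 A, B and C). Shares over all windows moved too: 9.96% were higher and 1.71% lower with 50 bp, and 20.4% and 4.87% with 1000 bp. Without WT D2 A, B and C, 7.66%, 8.47% and 8.43% of all windows were higher and 2.48%, 2.30% and 2.74% lower. With every covered window tested (571 with a never-seen region among WT libraries, 623 among all 15), calls numbered 40 (D2 against D0), 112 (D10 against D2), 137 (D10 against D0), 4 (KO against WT, D0) and 72 (KO against WT, D10), where KO had 15 higher and 57 lower. With all deposited peaks they were 16, 60, 51 and, for KO at D10, 30. Over all windows, 17.6% were then higher and 0.498% lower (D2 against D0), 3.13% and 53.7% (D10 against D2), 11.4% and 32.9% (D10 against D0), and 34.7% and 1.31% (KO, D10). A pseudocount of 50 bp gave 1 call for KO at D0. Without 1 library, calls ran from 22 to 30 (D10 against D2), 28 to 34 (D10 against D0) and 11 to 16 (KO, D10). No window with a never-seen region had a mean of 2000 covered bp, so that filter gave no value. What caused these shifts was not tested. Peak lists without read counts limit the depth of every absence: a region without a peak may hold 5hmC below the callers' threshold.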

Other observations

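Chromosome X was outside the rule. Of its 2523 merged regions, 72 had a peak in at least 2 mESC lists, and 25 of these had none in any pre-iPSC list.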
